A study of Rattus norvegicus with 30 samples.

Results

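The comparison described here set the hippocampus of male rats with an extreme behavioural response to predator scent against that of unexposed male rats. Its members were chosen by their labels alone, as the rats labelled male whose group is extreme response (5 rats) or control (5 rats), which is 10 of the 30 rats of the series. Their rat numbers end in R. All groups were adult Sprague Dawley rats, an outbred laboratory strain, with 1 rat per Illumina expression array. Controls were not exposed to the scent but were tested for their behaviour. Exposed rats were sorted by their later behaviour into minimal and extreme responders, so the exposed groups compared here differ from controls in exposure and in response together. The series also holds male minimal responders, of which 4 had values, and the same 3 groups of 5 female rats. No drug, transgene or surgery is named for any group, and the labels give neither the delay between exposure and dissection nor the behavioural scores.

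The hippocampus forms memories of context and helps to end the hormonal response to stress, for which its neurons carry glucocorticoid and mineralocorticoid receptors. Its dentate gyrus is built of granule cells, whose axons excite the pyramidal cells of CA3 and release the opioid peptide dynorphin along with glutamate. Protein production in such neurons runs from ribosomes through the endoplasmic reticulum, where chains are folded and given their sugars, to secretory vesicles, lysosomes and the membrane.

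The values are intensities on a log2 scale, normalised by the authors so that every array holds the same distribution. A value of 7.03 marked the upper edge of the background, and each array had 10302 of 22523 probes above it. The normalisation makes this number equal on all arrays, and the probes need not be the same ones. Markers of the labelled tissue were looked up. Of 13 markers of dentate granule cells on the list, 9 were on the array and 7 above background, and of 15 markers of CA1 to CA3 pyramidal cells 14 were on the array and above background. Of the striatum markers on the array 9 of 9 were above background too, and of the leptomeningeal ones 10 of 11. Such counts therefore do not identify the tissue. Choroid plexus markers had a mean level of 7.49 to 8.72 in controls and 7.56 to 8.23 in extreme responders. The highest rat was control 3 and the next were extreme responder 5 (8.23) and control 5 (8.14).

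Male extreme responder 4 stood apart from all other rats before any comparison was made. Its median correlation with the other 28 arrays was 0.964, against 0.977 to 0.988 for the others. It differed from the mean of the other 4 extreme responders with an SD over probes of 0.38, against 0.17 to 0.24 for the other 9 rats of this comparison within their groups. The mean level of its ribosomal protein genes was 11.61, where the other 4 extreme responders were at 12.10 to 12.15 and the controls at 12.15 to 12.35. A second irregularity crossed the groups. The probes of *Rpl37l1*, *Rpl7* and *Rpl23* and 5 unnamed probes split all rats into a set A of 12, which were high, and a set B of 17, which were low. Male controls 2, 3 and 4 were in set A, controls 1 and 5 in set B, and all 5 extreme responders in set B. The labels do not name this division, and extreme response and set can be separated only through the controls. Values without male extreme 4 and with the set as a block are given beside many of the results, and those of the other named calls as ranges. Whether the rat or the set has a part in a result was not tested.

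With limma, 74 of 11849 probes (0.625%) passed an adjusted p of 0.05, of which 54 were lower (0.456%) and 20 higher (0.169%) in extreme responders. With the set as a block the calls were 32 lower and 25 higher, and over all 8366 genes 4368 had a lower and 3998 a higher value. The lower probes differed by 0.25 to 0.84 on the log2 scale with a median of 0.39, and the higher ones by 0.25 to 0.83 with a median of 0.37. The lower group held genes of the ribosome and its assembly, of protein folding and glycosylation, of the proteasome and of mitochondria, together with the neuronal peptide gene *Pdyn* and the signals *Wnt4* and *Cxcl12*. Among those that were higher were the microtubule regulator *Stmn1*, the potassium channel gene *Kcnj11* and the pyruvate carrier gene *Mpc1*. The higher group also held genes of mitochondria (*Mpc1*, *Atp5f1b* and *Pitrm1*) and of glycosylation (*Dolpp1* and *Csgalnact1*). Of the 74 probes, 57 carried a gene symbol, 41 lower and 16 higher, and the groups of 5 did not overlap in 43 of the 54 lower and 16 of the 20 higher probes. Such separation was seen in 3.0% of all probes (1.95% below and 1.05% above). The 74 probes were chosen by their difference between these same rats, so their separation is no further evidence.

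These calls rested on an estimate of the spread taken from all 29 arrays. From the 10 rats alone limma called 0 probes (smallest adjusted p = 0.148, 1519 at an unadjusted p under 0.05), and from all 14 males also 0 (0.0733, 1679 unadjusted), against 1958 unadjusted with all arrays (16.5% of the probes kept). The fit of the 10 rats had 8 residual degrees of freedom, against 23 with all arrays. Why the counts differ was not tested. Without male extreme 4 the count was 18 (0.152%; 16 lower and 2 higher), of which 15 were among the 74, and with the set as a block it was 57 (0.481%), of which 20 were. With both changes together it was 65 (42 lower and 23 higher), of which 17 were among the 74. Within set B, where 2 controls remained, 0 passed (1179 unadjusted). The median difference of the lower probes was −0.38 without male extreme 4, −0.32 with the block and −0.35 within set B, and that of the higher probes was 0.34, 0.33 and 0.32. The count was 22 without control 2, 22 without control 3, 6 without control 4, 47 without extreme responder 2 and 124 without extreme responder 5. The labels do not say how rats were housed or processed together, and p-values rest on the spread between rats within the groups of each fit. In a whole hippocampus, fewer cells of a type and less RNA per cell cannot be told apart.

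**Figure D1:**
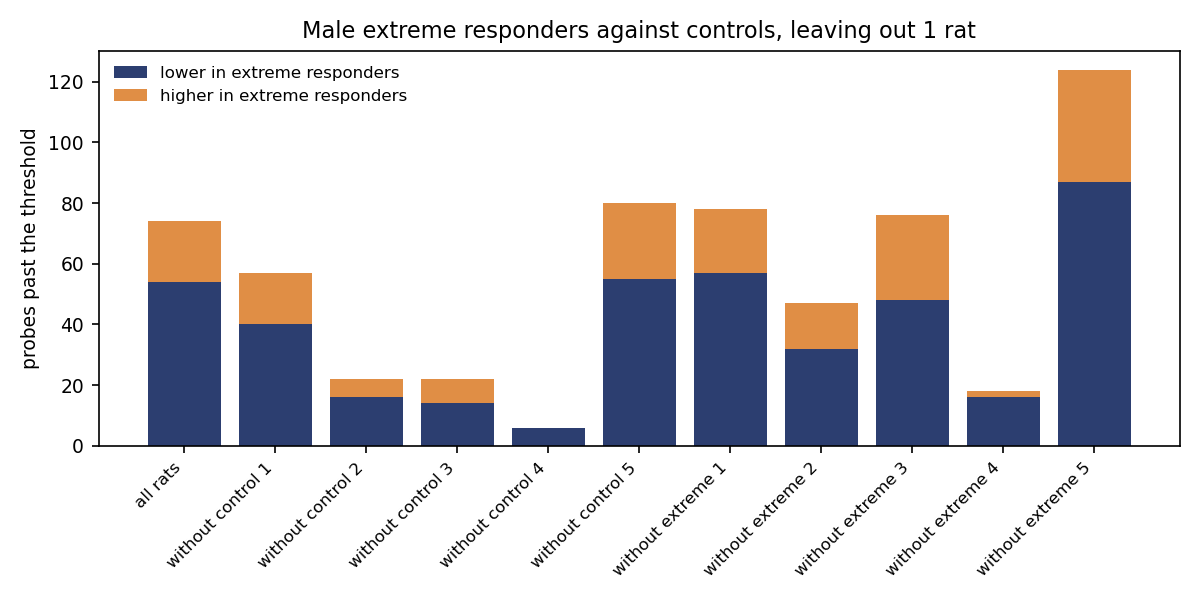
Number of probes past the threshold (y axis) in the comparison of male extreme responders with controls, for all rats and with 1 rat left out at a time (x axis), split into lower (dark) and higher (orange). The count of 74 fell to 18 without extreme responder 4 and to 6 without control 4, and rose to 124 without extreme responder 5.

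A core of 11 probes passed in the main comparison, without male extreme 4 and with the set as a block, and 9 of them carried a symbol. These were *Rps10*, *Slc15a4*, *Rab24*, *Manf*, *Utp23*, *Ndufv2*, *Mnat1* and *Stim1*, which fell, and *Ei24*, which rose. *Rps10*, *Slc15a4*, *Rab24*, *Ndufv2* and *Manf* also passed in each of the 10 comparisons that left out 1 rat. Without male extreme 4 the calls of 12 of the 57 named genes held, these 9 with *N6amt1*, *Psmd11* and *Arpc1b*. With the set as a block 16 held, these 9 with *Pdyn*, *Mrps5*, *Gmppa*, *Mpc1*, *Kcnj11*, *Pitrm1* and *Champ1*, and all 57 kept their direction in both. The other 45 had an adjusted p of 0.068 to 0.139 without male extreme 4, and the other 41 one of 0.0515 to 0.137 with the block. The difference was 0.672 to 1.19 times the main one without that rat and 0.597 to 1.2 times with the block, where *Bnip1* and *Fkbpl* moved by more than 1.5 times. Differences are on the log2 scale, extreme responders minus controls.

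*Rps10*, a protein of the small ribosomal subunit, was at 13.86, 14.08, 14.06, 13.95 and 14.08 in controls 1 to 5 and at 13.74, 13.49, 13.29, 13.29 and 13.51 in extreme responders 1 to 5 (log2 intensity, the unit of all such values below). All extreme responders lay below all controls, with responders 3 and 4 lowest. The difference was −0.55 ± 0.09 (SE, limma adjusted p = 0.00526), −0.47 (adjusted p = 0.0182) with the block and −0.50 (adjusted p = 0.0278) without male extreme 4. *Slc15a4*, a lysosomal transporter of histidine and small peptides that takes part in innate immune signalling, was at 9.96, 10.18, 10.08, 10.12 and 9.93 in controls and 9.69, 9.50, 9.66, 9.33 and 9.42 in extreme responders. Here too the groups did not overlap, and the rats of set B among the controls, 1 and 5, were the lowest of their group. It fell by 0.53 ± 0.09 (adjusted p = 0.00526). *Rab24*, a small GTPase linked to the clearance of autophagic vesicles, was at 11.66, 11.62, 11.54, 11.71 and 11.78 in controls and 11.23, 11.15, 10.90, 11.23 and 11.40 in extreme responders. The lowest control lay above the highest extreme responder, and male extreme 4 was in the middle of its group. It fell by 0.48 ± 0.08 (adjusted p = 0.00526).

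*Manf*, a protein of the endoplasmic reticulum that is secreted under folding stress and protects neurons, was at 9.84, 10.05, 9.92, 9.85 and 10.01 in controls and 9.53, 9.40, 9.60, 9.22 and 9.42 in extreme responders. It fell by 0.50 ± 0.09 (adjusted p = 0.0161), with extreme responder 4 lowest and no overlap. *Utp23*, a factor of small-subunit assembly in the nucleolus, was at 9.51, 9.52, 9.26, 9.63 and 9.33 in controls and 8.99, 9.00, 8.99, 8.82 and 9.17 in extreme responders. Extreme responders 1, 2 and 3 were nearly equal, and the gene fell by 0.46 ± 0.08 (adjusted p = 0.0124). *Ndufv2*, a subunit of the part of respiratory complex I that takes electrons from NADH, was at 12.31, 12.49, 12.41, 12.41 and 12.43 in controls and 12.21, 11.88, 11.99, 12.02 and 12.16 in extreme responders. Extreme responder 2 was lowest and responder 1 came closest to the controls. It fell by 0.36 ± 0.06 (adjusted p = 0.00846).

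*Mnat1*, which assembles the kinase module of the transcription factor TFIIH, was at 10.66, 10.65, 10.62, 10.70 and 10.78 in controls and 10.24, 10.27, 10.38, 10.36 and 10.52 in extreme responders. It fell by 0.33 ± 0.06 (adjusted p = 0.0171) without overlap. *Stim1*, the calcium sensor of the endoplasmic reticulum that opens store-operated channels, was at 11.44, 11.35, 11.17, 11.23 and 11.11 in controls and 10.94, 10.83, 11.07, 10.94 and 10.85 in extreme responders. Control 1 was highest, control 5 was close to extreme responder 3, and the gene fell by 0.33 ± 0.07 (adjusted p = 0.0171). *Ei24*, a membrane protein of the endoplasmic reticulum needed for autophagy and induced by p53, was at 10.14, 10.28, 9.96, 9.93 and 10.06 in controls and 10.68, 10.62, 10.30, 10.54 and 10.38 in extreme responders. All extreme responders lay above all controls, though responder 3 and control 2 differed by little, and the rise was 0.43 ± 0.08 (adjusted p = 0.0171).

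**Figure D2:**
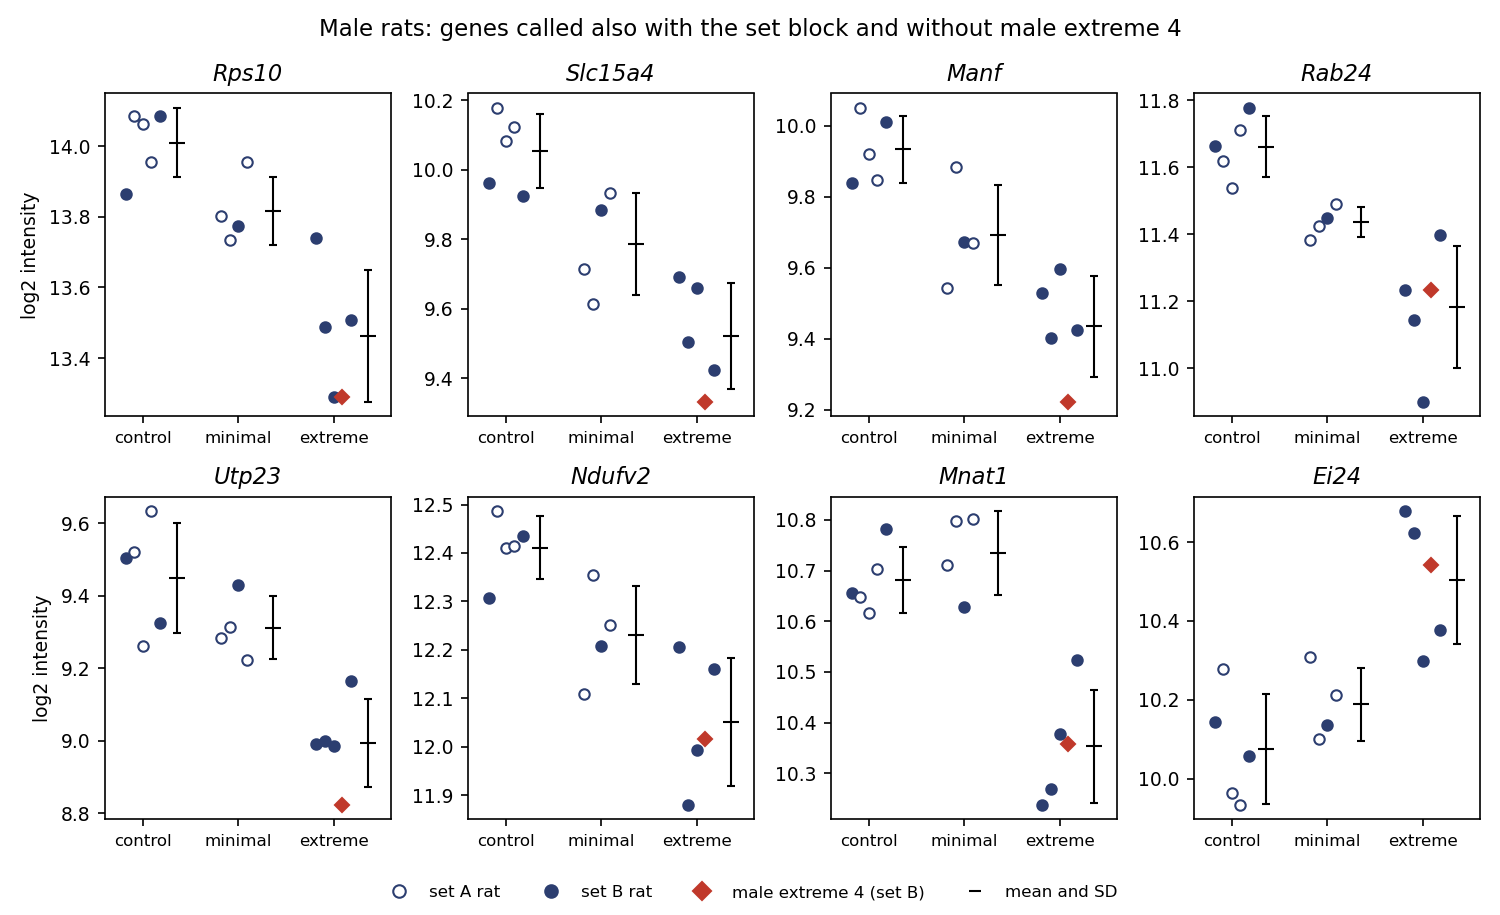
Log2 intensity (y axes, each gene with its own range) of 8 genes in male controls, minimal responders and extreme responders. Each point is 1 rat, open for set A and filled for set B, with male extreme 4 as a red diamond and bars for the mean and SD; in each of the 8 genes the extreme responders did not overlap the controls.

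The 5 largest falls with a symbol were in *C1ql2*, *Wnt4*, *Pdyn*, *Necab2* and *Cxcl12*, and none of the 5 passed without male extreme 4. *Pdyn*, the precursor of dynorphin, was at 8.68, 8.49, 7.91, 8.67 and 8.55 in controls and 7.36, 7.86, 8.16, 7.42 and 7.63 in extreme responders. Control 3 (7.91) lay within the range of the extreme responders, whose highest was responder 3 (8.16), so the groups overlapped. It fell by 0.77 ± 0.17 (adjusted p = 0.0358) and passed with the block (−0.93, adjusted p = 0.0182), but not without male extreme 4 (−0.71, adjusted p = 0.0961). *C1ql2*, a secreted protein of mossy fibre synapses that clusters kainate receptors, was at 9.65, 9.65, 9.48, 9.68 and 9.52 in controls and 8.51, 9.08, 9.22, 7.73 and 9.25 in extreme responders. The controls spanned 9.48 to 9.68, while the extreme responders spread from 7.73 to 9.25 with responder 4 far below the rest. It fell by 0.84 ± 0.20 (adjusted p = 0.0466), but was −0.58 (adjusted p = 0.109) without that rat and −0.78 (adjusted p = 0.0934) with the block. *Necab2*, a calcium-binding protein of CA2 and other neurons, was at 10.72, 10.99, 11.22, 11.21 and 10.83 in controls and 9.93, 10.27, 10.68, 9.79 and 10.82 in extreme responders. Extreme responders 3 and 5 came near or into the range of controls, and responders 1 and 4 were lowest. Its difference was −0.70 ± 0.17 (adjusted p = 0.0438), and −0.57 (adjusted p = 0.127) without male extreme 4.

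*Wnt4*, a secreted ligand of the Wnt pathway, was at 10.11, 9.94, 9.67, 9.95 and 9.62 in controls and 8.88, 9.00, 9.63, 8.22 and 9.59 in extreme responders. Extreme responder 4 was lowest, and responder 3 (9.63) reached just above control 5 (9.62). It fell by 0.79 ± 0.19 (adjusted p = 0.0438) and was −0.58 (adjusted p = 0.119) without male extreme 4. *Cxcl12*, a chemokine that guides neurons and is made by granule cells and vessels, was at 11.44, 11.69, 11.39, 11.53 and 11.24 in controls and 10.65, 10.87, 11.01, 10.41 and 10.92 in extreme responders. The groups did not overlap, and the gene fell by 0.68 ± 0.14 (adjusted p = 0.0281), and was −0.59 (adjusted p = 0.0729) without male extreme 4 and −0.64 (adjusted p = 0.0575) with the block.

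Most other members of these gene groups did not pass. Of 7 granule cell markers measured, 2 fell (*Pdyn* and *C1ql2*), 0 rose, and the median difference was −0.07. By sign alone, 4 of the 7 had a lower and 3 a higher value. Without male extreme 4 the median was −0.04 with 0 calls, and with the block it was 0.04 with 1 call, *Pdyn*. Of all 8366 genes 0.681% passed (0.49% lower, 0.191% higher), and their median was −0.01. The granule cell transcription factor *Prox1* differed by −0.07 and the calcium buffer *Calb1* by −0.09. Of 7 opioid peptides and receptors only *Pdyn* passed and the median was −0.04 (0.01 with the block). The nociceptin precursor *Pnoc* differed by 0.33 and the enkephalin precursor *Penk* by 0.20. The receptor *Oprm1* was above background in 1 control and 0 extreme responders. Among 14 pyramidal cell markers 1 fell (*Necab2*) and 10 had a lower value (median −0.10, but 0.02 without male extreme 4 and −0.15 with the block). Of 15 Wnt pathway genes *Wnt4* alone passed (median 0.01, −0.02 without male extreme 4 and −0.08 with the block). Of 11 chemokine, interferon and inflammatory genes *Cxcl12* alone passed and 8 had a lower value (median −0.09, −0.15 with the block), with the interferon regulatory factors *Irf3* by −0.32 and *Irf1* by −0.30.

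**Figure D3:**
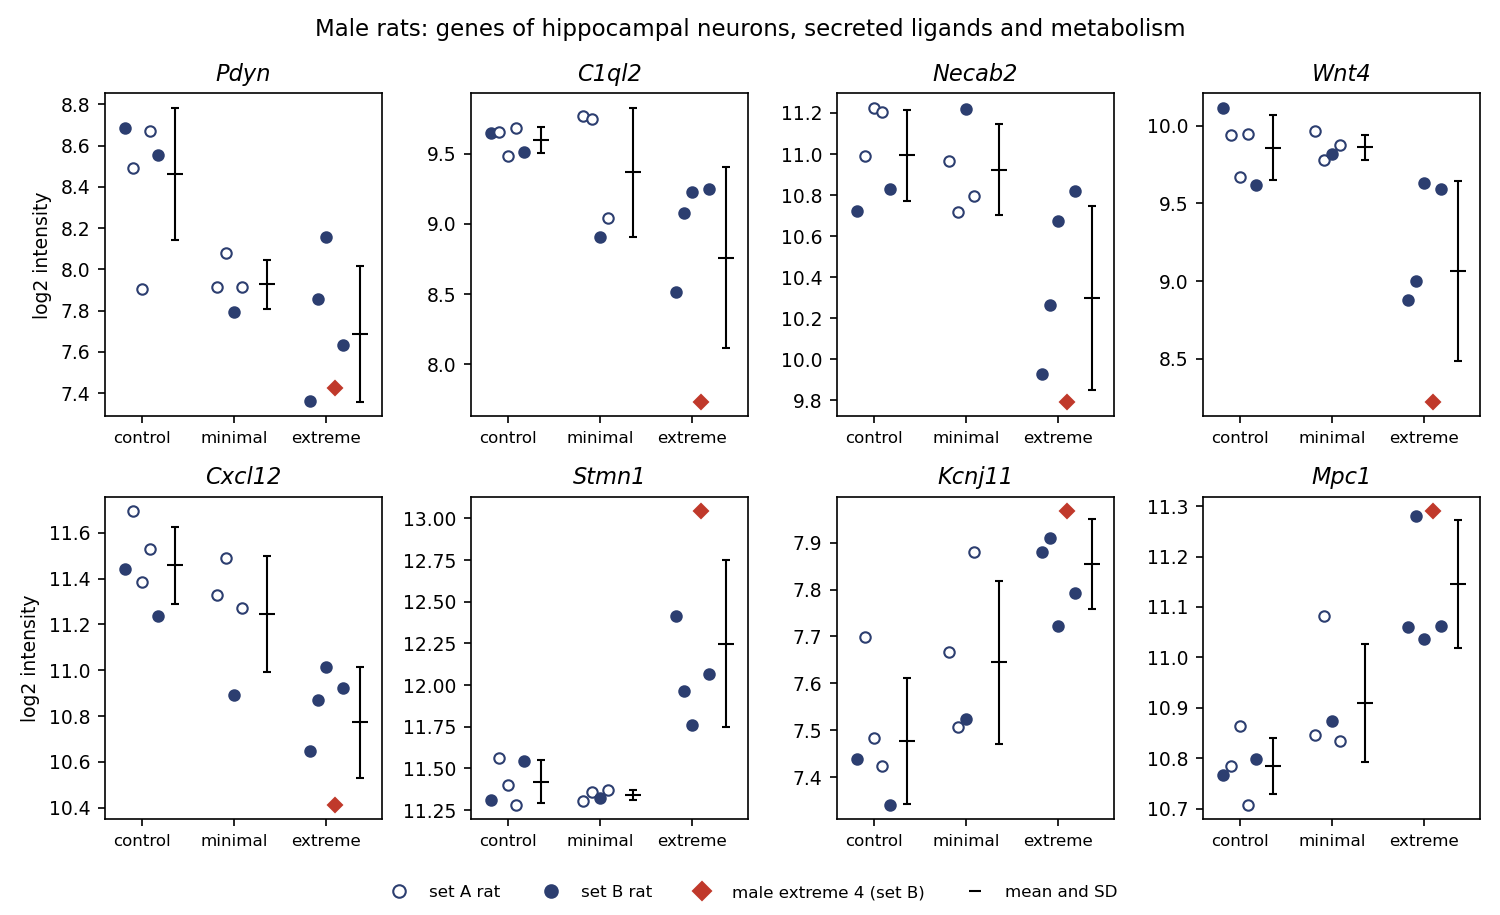
Log2 intensity (y axes, each gene with its own range) of *Pdyn*, *C1ql2*, *Necab2*, *Wnt4* and *Cxcl12*, which were lower in extreme responders, and of *Stmn1*, *Kcnj11* and *Mpc1*, which were higher. Each point is 1 male rat, open for set A, filled for set B and a red diamond for male extreme 4, with the mean and SD. That rat is lowest for *C1ql2*, *Necab2*, *Wnt4* and *Cxcl12* and highest for *Stmn1*, *Kcnj11* and *Mpc1*.

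Most genes of the ribosome had lower values in extreme responders, and few passed. Of all 8366 genes 1394 had an unadjusted p under 0.05 with limma, the share to set beside the unadjusted counts of this and the other lists. Of 63 cytosolic ribosomal protein genes 49 had a lower value, 2 fell and 0 rose (median −0.17, 25 at an unadjusted p under 0.05). Without male extreme 4 the median was −0.06, and with the set as a block −0.16. Besides *Rps10*, the gene *Rplp0*, a protein of the ribosomal stalk, fell by 0.35 ± 0.08 (adjusted p = 0.0344), but was −0.28 (adjusted p = 0.0961) without male extreme 4. It was at 14.53, 14.59, 14.55, 14.53 and 14.55 in controls and 14.32, 14.27, 14.23, 13.93 and 14.24 in extreme responders. The controls lay within 0.1 of one another and all extreme responders were below them. Members that did not pass were *Rpsa* (−0.34), *Rpl5* (−0.35), *Rpl29* (−0.29) and *Rps14* (−0.36). The 4 extreme responders other than 4 had mean levels of 12.10 to 12.15 over the list, which overlapped the controls only at control 1, the lowest of them.

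Other steps of translation were grouped after their values were seen, and no test was made of the group. *Polr1b*, a core subunit of RNA polymerase I, which transcribes ribosomal RNA, fell by 0.37 ± 0.08 (adjusted p = 0.0344). *Pdcd11*, which takes part in cutting the ribosomal RNA precursor, fell by 0.26 ± 0.06 (adjusted p = 0.032). *Trub1*, which makes pseudouridine in transfer RNA, fell by 0.32 ± 0.07 (adjusted p = 0.0438). *N6amt1*, a methyltransferase that modifies a translation release factor, fell by 0.43 ± 0.08 (adjusted p = 0.0171) and passed without male extreme 4 (−0.43, adjusted p = 0.0429), but not with the block (−0.31, adjusted p = 0.0539). Of 21 translation factors 1 rose and 0 fell (median −0.0013). It was *Eef2*, which moves the ribosome along the message (0.31 ± 0.07, adjusted p = 0.0467), and it was 0.25 (adjusted p = 0.139) without male extreme 4.

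In mitochondria, both directions were seen. Of 54 mitochondrial ribosomal proteins 45 had a lower value and 1 fell (median −0.10, −0.05 without male extreme 4). *Mrps5*, of their small subunit, was at 9.64, 9.70, 9.52, 9.68 and 9.83 in controls and 9.28, 9.23, 9.46, 8.86 and 9.14 in extreme responders. It fell by 0.48 ± 0.09 (adjusted p = 0.0171) with no overlap and with extreme responder 4 lowest. It passed with the block (−0.49, adjusted p = 0.0292) and not without male extreme 4 (−0.40, adjusted p = 0.0691). *Mpv17l2*, an inner membrane protein needed for mitochondrial ribosome assembly, was at 11.51, 11.45, 11.71, 11.51 and 11.67 in controls and 11.08, 11.08, 11.10, 10.50 and 11.27 in extreme responders. Extreme responders 1, 2 and 3 were nearly equal, and responder 4 lay far below them. It fell by 0.56 ± 0.12 (adjusted p = 0.0281) and was −0.44 (adjusted p = 0.0725) without that rat. *Gtpbp6*, a GTPase of the mitochondrial ribosome, fell by 0.41 ± 0.09 (adjusted p = 0.0344). *Coa7*, an assembly factor of the respiratory chain, fell by 0.33 ± 0.08 (adjusted p = 0.0438).

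Of 58 oxidative phosphorylation subunits 1 rose and 1 fell, and the median was −0.03 (0.04 without male extreme 4, −0.06 with the block). The one that fell was *Ndufv2*, described above. The one that rose, *Atp5f1b*, the catalytic beta subunit of ATP synthase, was at 13.75, 13.64, 13.66, 13.61 and 13.70 in controls and 13.89, 13.95, 14.03, 14.20 and 13.99 in extreme responders. All extreme responders lay above all controls, and the rise was 0.34 ± 0.07 (adjusted p = 0.0171) and 0.29 (adjusted p = 0.0691) without male extreme 4. Of 16 genes of mitochondrial carriers and pyruvate handling 1 rose and 11 had a higher value (median 0.14, 0.10 without male extreme 4). *Mpc1*, which with *Mpc2* forms the carrier that brings pyruvate into mitochondria, was at 10.77, 10.79, 10.86, 10.71 and 10.80 in controls and 11.06, 11.28, 11.04, 11.29 and 11.06 in extreme responders. The groups did not overlap, and responders 2 and 4 were highest. It rose by 0.36 ± 0.08 (adjusted p = 0.0281), and by 0.41 (adjusted p = 0.0238) with the block, while its partner *Mpc2* differed by −0.41. *Dld*, a subunit of pyruvate dehydrogenase and related complexes, differed by 0.31.

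*Pitrm1*, the peptidase that degrades cleaved import signals in mitochondria, was at 9.16, 9.15, 9.16, 9.19 and 8.99 in controls and 9.42, 9.61, 9.39, 9.63 and 9.51 in extreme responders. Controls 1 to 4 lay within 0.1 of one another, and every extreme responder was above them. It rose by 0.38 ± 0.08 (adjusted p = 0.0171) and passed with the block (0.40, adjusted p = 0.0276), but not without male extreme 4 (0.35, adjusted p = 0.068). In the cytosol, 14 of 15 glycolysis genes had a higher value and 0 passed (7 unadjusted, median 0.15, 0.07 without male extreme 4). The aldolase genes *Aldoa* and *Aldoc* differed by 0.34 and 0.26, and *Ldha*, lactate dehydrogenase, by 0.42. The mean level of the list was 12.05 in extreme responder 4 and 11.67 to 11.76 in the other 4, with controls at 11.56 to 11.75.

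**Figure D4:**
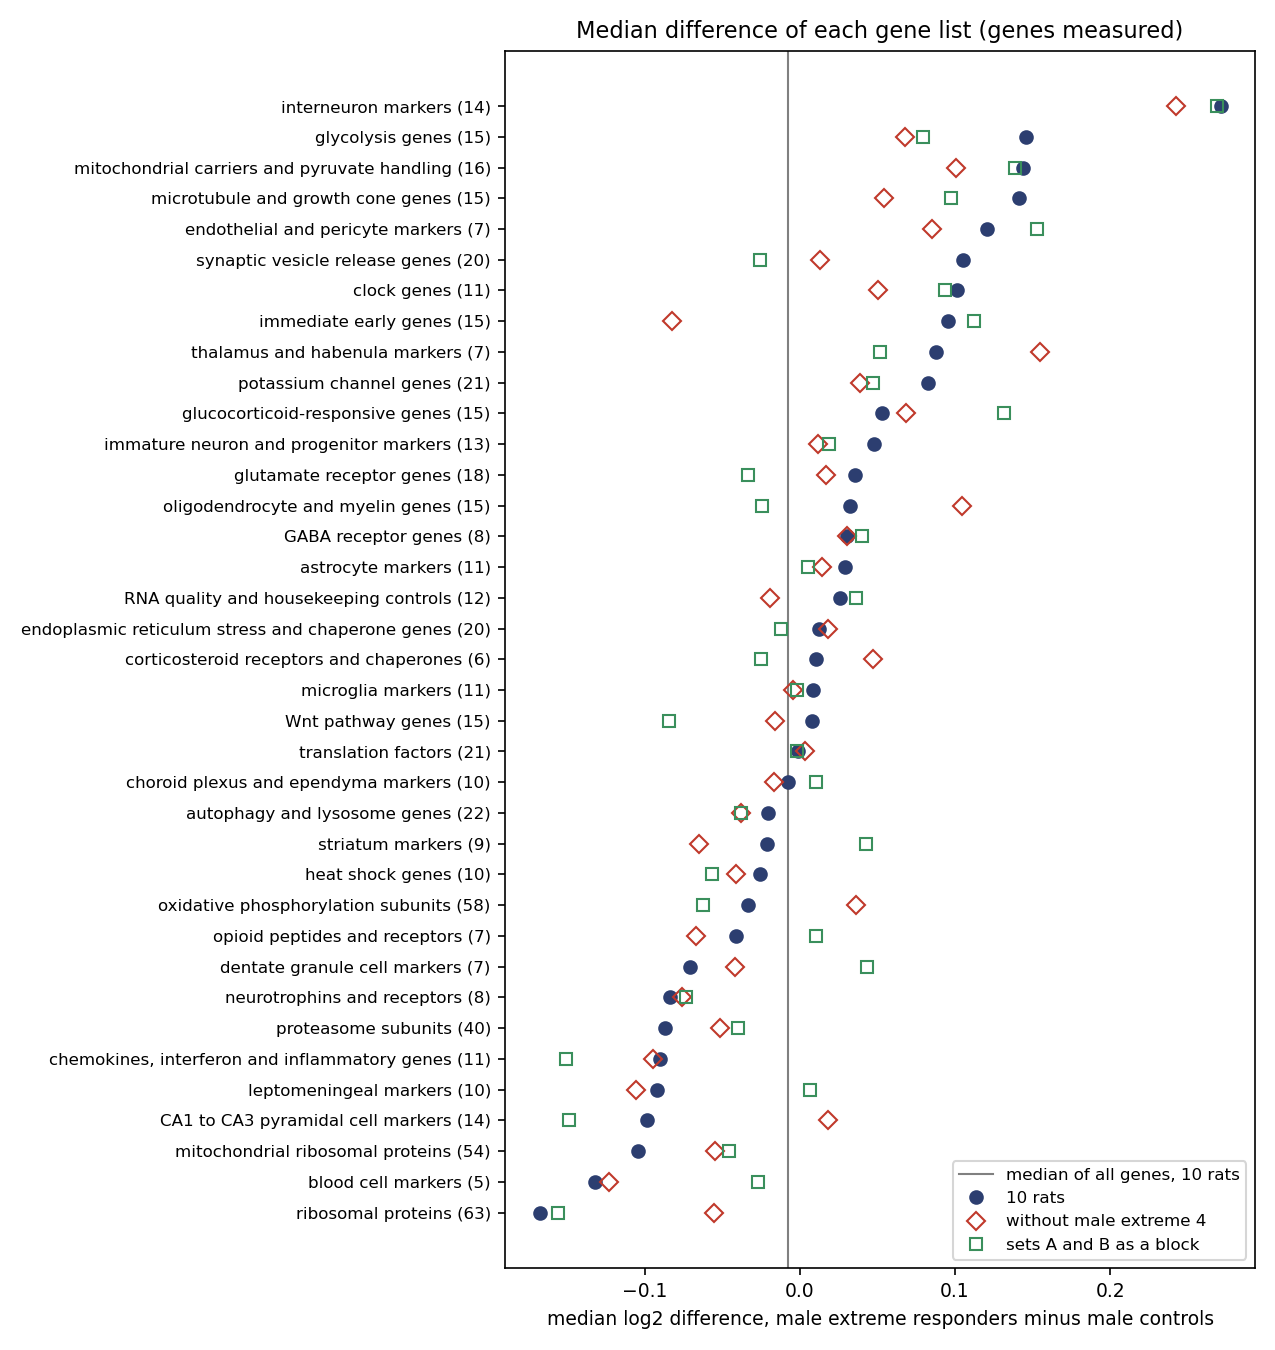
Median log2 difference (x axis) between male extreme responders and controls over the measured genes of each list drawn (y axis, number of genes in brackets). Values are for the 10 rats (filled circles), without male extreme 4 (red diamonds) and with sets A and B as a block (green squares). The lists of neocortex markers (4 genes measured) and of Y-linked genes and Xist (0) are not drawn. The vertical line is the median of all genes (−0.01); ribosomal proteins were lowest (−0.17, −0.06 without male extreme 4) and interneuron markers highest (0.27, 0.24).

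Several genes that add sugars to proteins or handle the lipid dolichol, which carries those sugars, were lower. This grouping was made after the values were seen and was not tested. *Dhrsx*, an oxidoreductase that takes part in dolichol synthesis, was at 9.79, 9.88, 10.22, 10.00 and 10.07 in controls and 9.65, 9.33, 9.31, 9.58 and 9.77 in extreme responders. The groups did not overlap, although extreme responder 5 and control 1 were close. It fell by 0.46 ± 0.11 (adjusted p = 0.0438) and was −0.34 (adjusted p = 0.124) with the block. *Gmppa*, which regulates the supply of GDP-mannose, was at 8.19, 8.25, 8.13, 8.02 and 8.34 in controls and 7.98, 7.75, 8.02, 7.82 and 7.50 in extreme responders. Extreme responder 5 was lowest, and responder 3 and control 4 were nearly equal. It fell by 0.37 ± 0.08 (adjusted p = 0.0358) and passed with the block (−0.41, adjusted p = 0.0343).

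Smaller falls were seen in *Nus1*, a subunit of the enzyme that builds dolichol (−0.29 ± 0.06, adjusted p = 0.0365), and *Ostc*, a subunit of the oligosaccharyltransferase (−0.35 ± 0.07, adjusted p = 0.0281). *Mgat4b*, which branches N-linked sugars in the Golgi, differed by −0.42 ± 0.10 (adjusted p = 0.0467). *Dolpp1*, a phosphatase that recycles dolichol pyrophosphate, moved the other way and was at 7.10, 6.99, 6.97, 6.94 and 7.10 in controls and 7.30, 7.35, 7.23, 7.47 and 7.37 in extreme responders. Only 2 of 5 controls lay above the background limit of 7.03, while all 5 extreme responders did. The measured rise of 0.32 ± 0.07 (adjusted p = 0.0368) therefore rests on control values mostly at the background. *Csgalnact1*, which starts chains of chondroitin sulfate, a component of the matrix around neurons, was at 8.52, 8.32, 8.28, 8.34 and 8.22 in controls and 8.70, 8.82, 8.72, 8.92 and 8.77 in extreme responders. No extreme responder overlapped a control, and the rise was 0.45 ± 0.09 (adjusted p = 0.0266), 0.42 (adjusted p = 0.0707) without male extreme 4 and 0.39 (adjusted p = 0.062) with the block.

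Other listed genes of the response to folding stress did not pass. The 20 endoplasmic reticulum stress and chaperone genes divided evenly, 10 with a higher value, and *Manf* alone passed (median 0.01, −0.01 with the block). The chaperone *Hsp90b1* differed by 0.35 and the transcription factor *Ddit3* by −0.38. *Sdf2l1* was above background in all 5 controls and 2 of 5 extreme responders. *Ubxn8*, which recruits the extraction enzyme p97 to the endoplasmic reticulum, was above background in all 5 controls and 0 of 5 extreme responders, and controls lay from 7.06 to 7.27. It was at least 1.13-fold higher in controls, with a measured difference of −0.28 ± 0.07 (adjusted p = 0.0438). *Dnajc18*, a membrane-bound cochaperone, fell by 0.35 ± 0.08 (adjusted p = 0.0344). Of 10 heat shock genes 0 passed (median −0.03, 2 unadjusted), with *Hspe1*, the mitochondrial co-chaperonin, by −0.69.

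Of 40 proteasome subunits 2 fell and 0 rose, and 26 had a lower value (median −0.09, 12 unadjusted). *Psmd11*, of the lid that receives ubiquitin-tagged proteins, fell by 0.38 ± 0.09 (adjusted p = 0.0394) and passed without male extreme 4 (−0.45, adjusted p = 0.0292), which was the highest of its group for this gene, but not with the block (−0.33, adjusted p = 0.0939). *Psmb1*, of the catalytic core, fell by 0.40 ± 0.09 (adjusted p = 0.0438). *Psmb10*, a catalytic subunit of the immunoproteasome, differed by −0.60, and by −0.35 without male extreme 4. Without male extreme 4, 2 subunits of the list passed, *Psmd11* among them and *Psmb1* not (adjusted p = 0.0961). With the block 1 subunit passed, *Psmb4* of the catalytic core, which differed by −0.21 without it and by −0.34 with the block.

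Of 22 autophagy and lysosome genes *Rab24* and *Slc15a4* fell and 0 rose (median difference −0.02). The palmitoyl thioesterases of the lysosome had opposite signs, 0.30 for *Ppt1* and −0.22 for *Ppt2*, and neither passed. Genes of membrane traffic outside the list went both ways. *Ap3d1*, a subunit of the adaptor that sorts cargo to lysosomes and synaptic vesicles, was at 10.64, 10.56, 10.45, 10.41 and 10.65 in controls and 10.71, 10.85, 11.10, 10.90 and 10.81 in extreme responders. It rose by 0.33 ± 0.07 (adjusted p = 0.0298) with no overlap, control 5 and extreme responder 1 being closest. *Stx7*, a SNARE of late endosomes, rose by 0.31 ± 0.07 (adjusted p = 0.0438). *Bnip1*, a SNARE of the endoplasmic reticulum, fell by 0.45 ± 0.11 (adjusted p = 0.0474) and was −0.27 (adjusted p = 0.137) with the block.

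*Stmn1*, which takes tubulin out of microtubules and is known in mice for its part in innate and learned fear, was at 11.31, 11.56, 11.40, 11.28 and 11.55 in controls and 12.41, 11.96, 11.76, 13.04 and 12.07 in extreme responders. Every extreme responder was above every control, and responder 4 was highest. The rise was 0.83 ± 0.19 (adjusted p = 0.0368), the largest of the increases with a symbol, but 0.63 (adjusted p = 0.102) without that rat and 0.85 (adjusted p = 0.0561) with the block. In 4 male minimal responders the gene was at 11.30 to 11.37, within the range of the controls. *Arpc1b*, of the complex that branches actin, fell by 0.34 ± 0.07 (adjusted p = 0.0344). Of 15 microtubule and growth cone genes *Stmn1* alone passed and 12 had a higher value (median 0.14, 0.05 without male extreme 4). *Marcksl1*, an actin-binding substrate of protein kinase C, differed by 0.49 and the neuronal tubulin gene *Tubb3* by 0.57. Of 13 markers of immature neurons and progenitors, a list that shares these genes, *Stmn1* alone passed (median 0.05), and *Tubb2b* differed by −0.45.

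*Kcnj11*, the pore of the potassium channel that closes when ATP is plentiful, was at 7.44, 7.70, 7.48, 7.42 and 7.34 in controls and 7.88, 7.91, 7.72, 7.97 and 7.79 in extreme responders. Control 2 was close to extreme responder 3, and the other controls were lower. It rose by 0.38 ± 0.08 (adjusted p = 0.0286), by 0.44 (adjusted p = 0.0182) with the block, and was 0.35 (adjusted p = 0.0725) without male extreme 4. Of 21 potassium channel genes it alone passed, and 15 had a higher value (median 0.08). *Ikbkb*, a kinase that activates NF-κB, was at 7.25, 7.20, 7.21, 7.13 and 7.24 in controls and 7.50, 7.33, 7.64, 7.71 and 7.52 in extreme responders. All values lay near background, and the groups did not overlap. It rose by 0.34 ± 0.07 (adjusted p = 0.032). *Pde4d*, which breaks down cyclic AMP, was above background in 1 of 5 controls and all 5 extreme responders, and its measured rise of 0.31 ± 0.07 (adjusted p = 0.0438) rests on control values mostly at the background. *Ralgds*, which links Ras to Ral signalling, fell by 0.41 ± 0.10 (adjusted p = 0.0467).

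Nuclear proteins were also represented. *Tspyl4*, of the nucleosome assembly family, was at 11.20, 11.08, 10.70, 11.10 and 11.03 in controls and 11.34, 11.49, 11.61, 11.82 and 11.43 in extreme responders. Control 3 was the lowest rat and the groups did not overlap. The rise was 0.52 ± 0.11 (adjusted p = 0.0344). *Zfp266*, a zinc finger protein, was at 7.40, 7.24, 7.30, 7.27 and 7.51 in controls and 7.48, 8.00, 7.70, 8.01 and 7.59 in extreme responders. Extreme responder 1 lay below control 5, and responders 2 and 4 were highest. It rose by 0.41 ± 0.10 (adjusted p = 0.0438). *Champ1*, which helps attach chromosomes to spindle microtubules, was at 7.97, 7.94, 7.91, 8.08 and 7.78 in controls and 8.16, 8.29, 8.10, 8.24 and 8.14 in extreme responders. The groups did not overlap, control 4 and extreme responder 3 being closest. It rose by 0.25 ± 0.06 (adjusted p = 0.0438), and by 0.29 (adjusted p = 0.0292) with the block. *Taf6l*, of a histone acetylation complex, fell by 0.29 ± 0.07 (adjusted p = 0.0438), and *Ssbp4*, of a family of single-stranded DNA-binding cofactors, by 0.33 ± 0.07 (adjusted p = 0.0344).

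The remaining large falls were in genes with less known roles. *Fam174c*, which encodes a predicted membrane protein, was at 9.24, 9.29, 9.55, 9.37 and 9.13 in controls and 9.08, 8.48, 9.01, 8.06 and 8.93 in extreme responders. Extreme responder 4 was lowest, responder 1 was close to control 5, and the gene fell by 0.60 ± 0.13 (adjusted p = 0.0344). *Pxdc1* was at 9.74, 9.71, 9.82, 9.72 and 9.79 in controls and 9.06, 9.46, 9.32, 8.40 and 9.61 in extreme responders. The controls were within 0.1 of their mean, extreme responder 4 was far below, and the gene fell by 0.59 ± 0.14 (adjusted p = 0.0467) and was −0.39 (adjusted p = 0.102) without that rat. *Ovca2*, a serine hydrolase, was at 10.04, 9.92, 9.88, 9.91 and 9.84 in controls and 9.36, 9.40, 9.67, 8.81 and 9.66 in extreme responders. It fell by 0.54 ± 0.12 (adjusted p = 0.0358) without overlap, extreme responder 4 being lowest. The other called genes were *Fkbpl*, a cochaperone of Hsp90 (−0.41 ± 0.09, adjusted p = 0.037), and *Manbal* (−0.33 ± 0.08, adjusted p = 0.0438). With the block *Fkbpl* was −0.27 (adjusted p = 0.105).

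The promoters of the genes called in each direction were read for known motifs, in the 250 bases before and 50 after the start site from RefSeq (GRCr8). Promoters were matched for 36 of 41 lower and 11 of 16 higher genes. The palindrome TGACGTCA, the binding motif of the cyclic AMP-responsive factor CREB, was in 3 of the 11 higher genes (27.3%) and 2 of the 36 lower genes (5.56%, *Coa7* and *Fkbpl*). It was in 3.21% of the 6948 tested genes with a promoter and in 1.91% of all 27457 promoters. These counts are small, the set of genes is that of the calls, and a match is a description of the sequence. The promoters of *Tspyl4* at chr20:39653538-39653837 (plus strand), *Zfp266* at chr8:27337490-27337789 (minus strand) and *Eef2* at chr7:9189189-9189488 (minus strand) are shown because these genes rose and hold the motif, which is in capitals and starts 72, 34 and 31 bases before the start site.
Tspyl4: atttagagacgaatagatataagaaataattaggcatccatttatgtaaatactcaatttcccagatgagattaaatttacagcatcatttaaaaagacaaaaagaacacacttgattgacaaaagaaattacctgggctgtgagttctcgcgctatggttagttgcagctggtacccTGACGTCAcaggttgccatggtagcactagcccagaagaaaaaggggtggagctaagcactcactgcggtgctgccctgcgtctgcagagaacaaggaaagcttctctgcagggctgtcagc
Zfp266: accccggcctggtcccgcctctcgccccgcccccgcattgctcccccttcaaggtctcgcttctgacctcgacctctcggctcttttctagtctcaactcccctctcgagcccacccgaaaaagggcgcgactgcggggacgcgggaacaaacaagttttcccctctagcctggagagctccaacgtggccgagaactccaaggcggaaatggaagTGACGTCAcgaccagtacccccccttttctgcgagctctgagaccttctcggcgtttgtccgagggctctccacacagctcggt
Eef2: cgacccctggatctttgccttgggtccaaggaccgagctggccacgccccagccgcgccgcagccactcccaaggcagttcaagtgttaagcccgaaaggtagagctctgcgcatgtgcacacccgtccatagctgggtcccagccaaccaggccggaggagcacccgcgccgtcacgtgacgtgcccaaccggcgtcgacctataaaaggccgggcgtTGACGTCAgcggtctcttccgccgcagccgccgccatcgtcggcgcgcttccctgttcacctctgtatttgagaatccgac
The promoter of *Eef2* also holds the lysosomal gene motif named CLEAR, which contains the E-box CACGTG. CLEAR was in 0.504% of tested genes and the E-box in 9.33%. The E-box was in 2 of the 11 higher (18.2%) and 3 of the 36 lower genes (8.33%). The GC box GGGCGG was in 72.7% of higher and 66.7% of lower genes (61.1% of tested genes), and the CCAAT box in 54.5% and 38.9% (37.9%). The ETS motif CCGGAAGT was in 0 and 1 (2.78%, 7.71% of tested genes), and the NRF1 motif in 1 (9.09%) and 2 (5.56%, 9.86%). The glucocorticoid response element, the endoplasmic reticulum stress element and the unfolded protein response element TGACGTGG were in 0 of the higher and 0 of the lower genes, and in 0%, 0.201% and 0.907% of tested genes. Both strands were searched.

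The genes best known for their response to stress hormones were not among the calls. Among 15 genes that respond to glucocorticoids 9 were higher in value and 0 passed with limma (2 unadjusted, median 0.05). *Sgk1*, a kinase induced by glucocorticoids, was at 11.20, 11.42, 11.11, 12.43 and 11.66 in controls and 11.77, 11.56, 11.54, 11.55 and 11.99 in extreme responders. Control 4 was the highest of the 10 rats and the groups overlapped (difference 0.12 ± 0.19, adjusted p = 0.804). *Ddit4*, an inhibitor of mTOR signalling, was at 10.40, 9.70, 10.07, 9.94 and 10.59 in controls and 10.41, 10.20, 10.24, 10.11 and 10.53 in extreme responders, with the groups overlapping (difference 0.16 ± 0.15, adjusted p = 0.642). With the block the difference of *Ddit4* was −0.05 (adjusted p = 0.897). *Fkbp5*, which damps the glucocorticoid receptor, was at 10.52, 10.59, 10.29, 10.62 and 10.26 in controls and 10.19, 10.39, 10.51, 9.39 and 10.36 in extreme responders, and extreme responder 4 lay far below the others. The difference of −0.29 ± 0.13 (adjusted p = 0.279) became −0.09 (adjusted p = 0.732) without it. Of 6 corticosteroid receptors and chaperones 0 passed (2 unadjusted, median 0.01, −0.03 with the block). The probe of the glucocorticoid receptor gene *Nr3c1* was above background in 1 of 5 controls and 1 of 5 extreme responders, so no difference is given, and that of *Crh*, the corticotropin-releasing peptide, in 1 and 3. The mineralocorticoid receptor gene *Nr3c2* differed by −0.32 ± 0.13 (adjusted p = 0.217), and by −0.18 (adjusted p = 0.537) without male extreme 4, its lowest rat (7.28). *Hsp90aa1*, which holds the receptor ready for hormone, differed by 0.53, and by 0.67 with the block, where it passed.

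Of 15 immediate early genes, which neuronal activity induces, 9 had a higher value and 0 passed (4 unadjusted). Their median was 0.10 and −0.08 without male extreme 4, whose mean level on the list was 9.14 against 8.31 to 8.72 in the other extreme responders and 8.49 to 8.70 in controls. *Arc*, which acts at synapses, was at 8.74, 8.72, 9.32, 9.18 and 8.76 in controls and 9.42, 9.27, 9.24, 10.40 and 8.20 in extreme responders, with extreme responder 4 highest and responder 5 lowest (difference 0.36 ± 0.24, adjusted p = 0.47). *Fos* differed by 0.44 ± 0.22 (adjusted p = 0.299), and *Jun*, with no overlap between groups, by −0.42. Of 11 clock genes 0 passed (1 unadjusted, median 0.10), with the output gene *Dbp* by −0.24. Of 8 neurotrophins and receptors all had a lower value and 0 passed (1 unadjusted, median −0.08). *Ntf3*, neurotrophin 3, above background in 4 of 5 extreme responders, differed by −0.44, and *Bdnf* by −0.0017 ± 0.11 (adjusted p = 0.995).

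Markers of inhibitory interneurons had the highest median of all lists. Of 14 markers 12 had a higher value and 0 passed (4 unadjusted, median 0.27, 0.24 without male extreme 4 and 0.27 with the block). The mean level over the list was 8.67, 9.05, 9.14, 8.78 and 9.09 in controls 1 to 5 and 9.36, 9.16, 9.14, 9.22 and 9.19 in extreme responders 1 to 5. Controls 1 and 4 were low, and the other controls lay close to the extreme responders. The peptide gene *Sst* differed by 0.62, the calcium buffer *Pvalb* by 0.38, *Gad2*, an enzyme of GABA synthesis, by 0.52, and the peptide gene *Vip* by 0.54. *Npy*, a peptide linked to resilience to stress, was at 9.60, 9.26, 9.70, 8.89 and 10.55 in controls and 10.10, 10.37, 9.72, 9.43 and 10.29 in extreme responders, with overlap (difference 0.38 ± 0.27, adjusted p = 0.487). With the block it differed by −0.10.

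Other cell types and synaptic genes had 0 calls with limma. Of 20 synaptic vesicle release genes 13 had a higher value (median 0.10, 0.01 without male extreme 4 and −0.03 with the block, 3 unadjusted), of 18 glutamate receptor genes 11 (0.04, −0.03 with the block, 3 unadjusted), and of 8 GABA receptor genes 6 (0.03, 1 unadjusted). With the block *Rims1*, a scaffold of the active zone, passed with −0.69, against −0.10 without it. *Grik2*, a kainate receptor subunit, differed by −0.35, and *Snap25*, a SNARE of vesicle release, by 0.42. Of 11 astrocyte markers 8 had a higher value (median 0.03, 2 unadjusted), with the glutamate transporter *Slc1a2* by 0.38. Of 15 oligodendrocyte and myelin genes 9 had a higher value (0.03, −0.02 with the block, 1 unadjusted) and of 11 microglia markers 6 (0.01, 2 unadjusted), with *Trem2*, a microglial lipid receptor, by −0.43. Each of 7 markers of endothelium and pericytes was higher in value (0.12, 1 unadjusted).

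Markers of tissue next to the hippocampus also had 0 calls with limma. The median was −0.01 over 10 choroid plexus and ependyma markers (0 unadjusted), −0.09 over 10 leptomeningeal (1), −0.02 over 9 striatum (1), 0.09 over 7 thalamus and habenula (0), 0.19 over 4 neocortex (0) and −0.13 over 5 blood cell markers (1). With the block the leptomeningeal median was 0.01 and the striatum median 0.04. The medians of choroid plexus, microglia and translation factor genes, all close to 0, also changed sign without male extreme 4 or with the block. The neocortex median was −0.03 without male extreme 4, whose level on that list was 10.53 against 9.55 to 10.18 in the other 4 and 9.63 to 10.02 in controls. *Hbb*, a haemoglobin chain, differed by −0.40. Over 12 housekeeping genes the median was 0.03 (−0.02 without male extreme 4) and *Rplp0* alone passed, with *Actb* by 0.30. The part of dissection or RNA quality in the results was not tested.

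Male minimal responders were exposed too and share their controls with this comparison, so their values are set beside it without a test of likeness. Against controls 0 probes passed in minimal responders with limma (0.0%, 502 unadjusted). *Rps10* differed by −0.19 ± 0.09 between minimal responders and controls, *Slc15a4* by −0.27 ± 0.09, *Rab24* by −0.22 ± 0.08 and *Manf* by −0.24 ± 0.10. *Pdyn* differed by −0.53 ± 0.18, its 4 rats lying from 7.80 to 8.08. *Mnat1* differed by 0.05 ± 0.07, *Stim1* by 0.01 ± 0.07, *Wnt4* by 0.002 ± 0.20 and *Stmn1* by −0.08 ± 0.20, each within 1 SE of 0. Compared directly, extreme and minimal responders differed in 9 probes (0.076%), among them *Mnat1* (−0.38 ± 0.07, adjusted p = 0.0405), *Stim1* (−0.34 ± 0.07, adjusted p = 0.0425) and *Nus1* (−0.37 ± 0.07, adjusted p = 0.0422). Of the 4 minimal responders 3 were in set A.

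Female rats gave a comparison with no shared animals, although it has the same division: 3 of 5 female controls and 0 of 5 female extreme responders were in set A. Both sexes were fitted together, so the calls of the sexes share the estimate of the spread of each probe. Of the 74 probes 62 (83.8%) had the same sign in females, 48 of 54 lower and 14 of 20 higher, against 58.0% of all probes. With the set as a block in both sexes the share was 73.0% (54 of 74), against 60.7% of all probes. Over all probes the female and male differences had a Pearson correlation of 0.353, and 0.338 with the block, a description across probes that are not independent. The female median was −0.19 for the lower and 0.08 for the higher probes, and since the probes were chosen by their male values, sizes were not compared between the sexes. Female extreme responders had 119 calls of their own (1.0%), and 4 probes passed in both sexes, all lower, which is 5.41% of the male and 3.36% of the female calls. They were *Mnat1* (female −0.28 ± 0.06), *Stim1* (−0.35 ± 0.07), *Mgat4b* (−0.43 ± 0.10) and 1 unnamed probe.

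The difference between the sexes was tested for each probe, and 2 of 11849 passed (0.0169%, 1010 unadjusted). *Csgalnact1* rose in males (difference 0.45) and differed by −0.26 ± 0.09 in females, a male minus female difference of 0.71 ± 0.13, adjusted p = 0.0462. *Tmem252*, a membrane protein, was above background in 0 of 5 male controls, 1 of 5 male extreme responders, 1 of 5 female controls and all 5 female extreme responders. In males its values lay from 6.65 to 7.10, and no male difference is given. The measured female difference of 0.60 ± 0.08 and the male minus female difference of −0.65 ± 0.11, adjusted p = 0.0462, rest on values at the background. The call of *Csgalnact1* ended without male extreme 4 (adjusted p = 0.135), and so did that of *Tmem252* (0.132). *Sgk1*, *Ddit4* and *Arc* did not pass this test. *Sgk1* differed by 0.12 in males and 1.07 ± 0.19 in females (difference −0.95 ± 0.27, adjusted p = 0.32). *Ddit4* differed by 0.16 and 1.08 ± 0.15 (difference −0.92 ± 0.22, adjusted p = 0.192), and *Arc* by 0.36 and 1.21 ± 0.24 (difference −0.85 ± 0.35, adjusted p = 0.487).

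**Figure D5:**
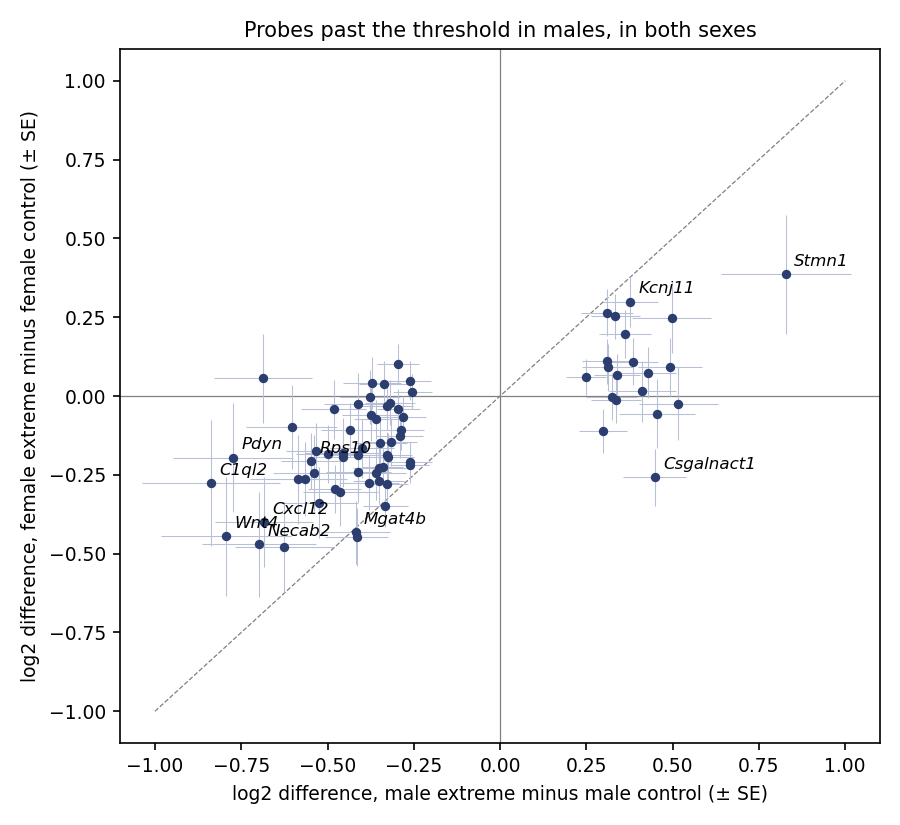
Log2 difference between extreme responders and controls in males (x axis) and in females (y axis) for the 74 probes past the threshold in males, with lines for 1 SE and the diagonal dashed. The probes were chosen by their male values; 62 of 74 have the same sign in females, and *Csgalnact1* lies on the opposite side.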

How the data were processed

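Hippocampal RNA of adult rats was hybridised to Illumina expression arrays, 1 rat per array. The authors' deposited values were used. They are intensities, and their range (6.31 to 15.0) and the median of 6.96 in each of 29 columns were read as log2; the sources used here name no log base, software or background correction. The sorted columns agree within 0.00119, so the deposited log2 intensity values had been quantile normalised. Male minimal responder 5 had no values. The 60 columns of a second table match no label and were not used here.

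Probes above 7.03 on at least 5 arrays were kept (the mode of the background, 6.70, plus 3 of its SDs of 0.109). These were 11849 of 22523 probes (52.6%). Of these, 8522 carried 1 symbol (8366 genes), 0 several and 3327 none. Gene IDs matched 13752 of the 13793 symbols that name probes, and 0 changed. No called gene had a second kept probe.

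The 6 groups were fitted together without a block in limma 3.58.1 (R 4.3.3; lmFit, contrasts.fit, eBayes; 23 residual and 5.06 prior degrees of freedom), two-sided, with Benjamini-Hochberg adjustment over the probes kept and a threshold of 0.05. The fit was tested on simulated data of this contrast over 11849 probes. Without a simulated set effect it called 73.1%, 88.1% and 95.5% of changes of 0.4, 0.7 and 1. With a simulated set effect and the sets as a block it called 62.7%, 86.6% and 97%. Whether these shares hold for the real arrays, where male extreme 4 stood apart and probes can vary together, was not tested. Alternatives were no filter, a stricter filter, the 10 rats or all males alone, a block for the division of arrays or for replicate number, cyclic loess, array weights, a variance trend with a robust prior, and leaving out each rat. The planned rule for a division of the arrays picked 27 probes that set apart 4 arrays, 0 of them among the 10 rats. Sets A and B, from 8 of the 45 probes with a gap of at least 0.8, and their fits were added after seeing the data.

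The genes named are those past the threshold with a symbol, and of each gene list those past the threshold and up to 4 others with the smallest unadjusted p. *Sgk1*, *Ddit4*, *Fkbp5*, *Nr3c1*, *Nr3c2*, *Bdnf*, *Npy*, *Crh*, *Arc* and *Fos* were named whatever their values. *Rims1* and *Psmb4* were named after their values were seen. Where a probe was above the limit of 7.03 in 0 rats of a group, the fold is a bound, the mean of the brighter group against that of the dimmer group with lower values set to the limit. Except where a probe lay at the background, every rat's value is given for the 12 largest increases, the 16 largest decreases and those that pass with the block. The 39 lists with their results in the report were described by counts and medians over each gene's brightest probe. One of them, Y-linked genes and Xist, had 0 probes. Members, lists and rules were chosen with earlier results of these data known. Promoters are from RefSeq. Figures were drawn with matplotlib 3.10.9 in Python 3.11.15.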

Additional observations from a re-analysis of the deposited data

Results flagged for a closer look

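In 7 of 136 groups of 5 values the gap from the highest or lowest rat to the next, divided by the range of the group, was above Dixon's critical value of 0.71, where chance gives about 1 in 20. Male extreme 4 was the lowest of its group for *Mpv17l2* (10.5), *Rplp0* (13.9) and *Fkbp5* (9.39). Male control 3 was low for *Pdyn* (7.91, the next control being at 8.49). Male control 4 was high for *Polr1b* (9.52), male control 5 low for *Pitrm1* (8.99) and male extreme 2 high for *Stx7* (11.6).

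The difference between extreme responders and controls itself differed between the sexes for *Tmem252*, with a male minus female difference of −0.65, and for *Csgalnact1*, with 0.71 (limma interaction, adjusted p = 0.0462 for each). The probe of *Tmem252* was above background in all 5 female extreme responders, 1 of 5 female controls and 1 of 10 males, so its value rests on levels at the background, while *Csgalnact1* was higher than in controls in all 5 male extreme responders and had a lower mean in female ones.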

How the results depend on the processing

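The count of 74 probes became 0 when limma was fitted to only the 10 rats compared (smallest adjusted p = 0.148, 1519 unadjusted) or to all males without females (0, 0.0733, 1679), and 0 within set B (0.301, 1179), where fewer rats estimate the spread. It ran from 6 to 124 when 1 of the 10 rats was left out, and from 52 to 85 with no or a stricter filter, cyclic loess, array weights, a variance trend and the division of 4 and 25 arrays. With replicate number as a block it was 35 (9 higher, 26 lower, 32 shared). The numbers were not taken to pair the rats: the deviations of same-numbered rats correlated at −0.24, −0.02, 0.18, 0.11 and 0.19, and 2 of 5 controls correlated best with their own number. The 2 probes that differed between the sexes became 0 with only the 25 arrays, 0 with array weights, 0 within set B, 0 with sets A and B as a block in a leave-one-out of male extreme 4, and 1 with the variance trend, and ran from 0 to 2 when 1 male was left out; the cause was not tested. With the block of sets alone they were 3. All 57 named calls kept their direction under all of these alternatives that tested them, and of 1559 values of named genes over the alternatives 652 lost the call and 0 reversed. With sets A and B as a block together with the leave-one-out of male extreme 4 the count was 65 (23 higher, 42 lower, 17 shared). List medians moved by more than the spread between rats in 23 of 874 cases.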
